A study of Mus musculus with 9 samples.

Results

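The circular RNAs (circRNAs) described here are those that arise from Gnb1 and Arpp21, and they were chosen by the host gene symbol in the authors' lists of circRNAs higher in the HuD immunoprecipitate than in a control. The lists named 737 probes, among the 14330 non-control probes of the array, and 5 of these carried the symbol, 2 for Gnb1 and 3 for Arpp21. All 5 stood in both lists (against WT and against IgG), all were annotated as exonic, and all passed the filter on dim probes. Membership was therefore selected on the difference between HuD RIP and each control, and those differences are given below as a description with no test.

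HuD, the product of Elavl4, is an RNA-binding protein of neurons with a preference for U-rich and AU-rich stretches, and RNA immunoprecipitation (RIP) recovers the RNA that comes down with a protein. The 9 samples were RIPs from adult mouse striatum. HuD RIP (n = 3) used tissue of transgenic mice overexpressing a myc-tagged HuD (HuD-OE) from the Camk2a promoter, on a C57BL/6J background, precipitated with an anti-myc tag antibody. WT RIP (n = 3) applied that antibody to wild-type tissue. IgG RIP (n = 3) used HuD-OE tissue and, per the methods of the study, nonimmune IgG, although the labels of the IgG samples name the anti-myc antibody. The study describes pooled animals for each precipitation, and the RNA was treated with RNase R, which digests linear RNA, before labelling. The Camk2a promoter is active in forebrain neurons, so the tagged protein is limited to the cells in which the transgene is on. In tissue pools, fewer cells of a type and less circRNA per cell cannot be told apart.

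Gnb1 encodes the β1 subunit of heterotrimeric G proteins, which pairs with a γ subunit, releases from the α subunit when a receptor is activated, and signals to channels, adenylyl cyclases and kinases downstream of dopamine and other receptors. Arpp21 encodes a cAMP-regulated phosphoprotein enriched in the projection neurons of the striatum. Its short form, also called regulator of calmodulin signalling, binds calmodulin after phosphorylation by protein kinase A, and its longer form carries an R3H domain that binds RNA. Circular RNAs form when the splicing machinery joins a downstream splice donor to an upstream acceptor, and the join, the back-splice junction, is the part that tells them from the linear transcript.

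The deposited lists pair each of the 5 circRNAs with a 60-base sequence, of which the middle is shown because it is the sequence the lists attach to each isoform. Each line gives bases 16 to 45, 5′ to 3′, with runs of 3 or more T in capitals. The lists do not mark where in the sequence the junction falls.
Gnb1 mmu_circRNA_38005: ggattctgaagtgtggaaagcactgagacg
Gnb1 mmu_circRNA_38004: acttacatgtgtgggaaaccagaccagaaa
Arpp21 mmu_circRNA_018301: aaaaactcTTTTTaaTTTggatctgggaga
Arpp21 mmu_circRNA_45179: agtcaggagcaggcaaagggaagctgacca
Arpp21 mmu_circRNA_010556: agatctggaggggaaagtcaccaggatcag
In these windows mmu_circRNA_018301 alone held runs of T. Over the full 60 bases, T made up 28.3% of mmu_circRNA_018301, 21.7% of mmu_circRNA_010556, 20.0% of mmu_circRNA_38005 and 16.7% of each of mmu_circRNA_38004 and mmu_circRNA_45179, beside a median of 23.3% over the 737 listed sequences. The letters TTTTT occurred in 1 of the 5 sequences as deposited, that of mmu_circRNA_018301, and in 3.66% of all 737, and on the reverse complement in the same circRNA and in 8.41% of all. Neither ATTTA nor TATTTAT (which contains ATTTA) was found on either strand of the 5 sequences. ATTTA occurred in 5.29% of the 737 as deposited and 3.80% on the reverse complement, and TATTTAT in 0.271% and 0.407%. These are the letters of a short sequence only, and the rest of each circRNA was not analysed here. No pair of the 5 sequences shared a run of more than 8 bases. Whether a probe also picks up another isoform was not tested.

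Both Gnb1 circRNAs were placed on the plus strand of chromosome 4 and assigned to transcript NM_008142. mmu_circRNA_38005 (probe ASCRP4004245) was listed at 155527412 to 155535464, and mmu_circRNA_38004 (probe ASCRP4010644) at 155515630 to 155543193. The span of mmu_circRNA_38005, 8.05 kb, lay wholly within the 27.6 kb span of mmu_circRNA_38004, of which it took 29.2%, and the pair shared neither end. The Arpp21 circRNAs were placed on the minus strand of chromosome 9. mmu_circRNA_018301 (probe ASCRP4001808, NM_033264) was listed at 112157689 to 112185769, mmu_circRNA_45179 (probe ASCRP4007939, NM_033264) at 112143308 to 112183584, and mmu_circRNA_010556 (probe ASCRP4008264, NM_028755) at 112183494 to 112187766. The first pair overlapped along most of their length, 92.2% of mmu_circRNA_018301 and 64.3% of mmu_circRNA_45179. mmu_circRNA_010556 shared 53.3% of its 4.27 kb span with mmu_circRNA_018301 but only 90 bases with mmu_circRNA_45179. The lists do not name their genome build or say whether starts count from 0 or 1, and all 5 spans lay inside their host genes on GRCm38.p6 (Gnb1, 67.97 kb; Arpp21, 171.2 kb). The microRNA gene Mir128-2, which lies within Arpp21 on the same strand, fell outside all 3 Arpp21 circRNAs, 24.6 kb from the nearest of them.

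**Figure D1:**
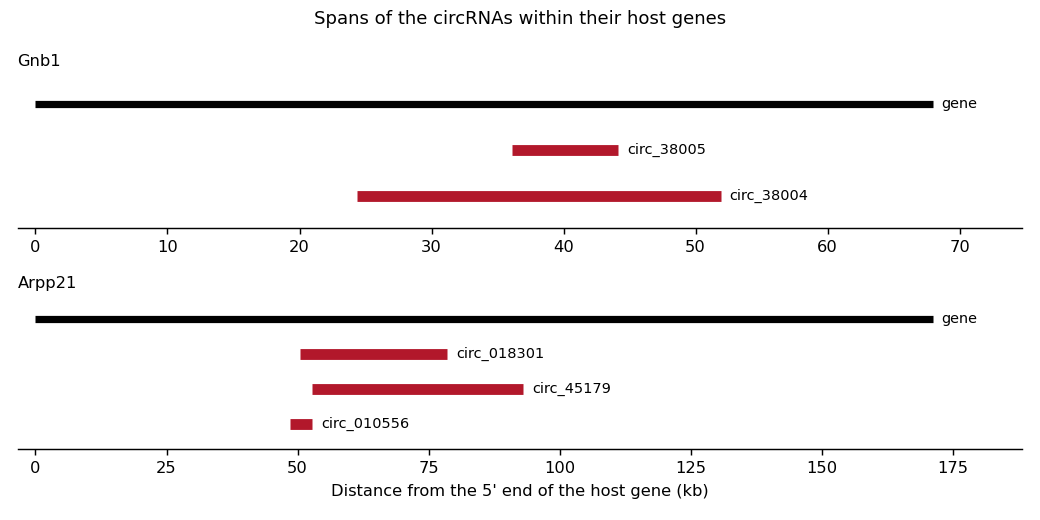
Horizontal bars show the span of each circRNA (red) under its host gene (black), against the distance from the 5′ end of the gene in kb on GRCm38.p6, with introns included. The Gnb1 circRNAs are nested, at 36.1 kb and 24.3 kb from the 5′ end, while the 3 Arpp21 circRNAs start between 48.5 kb and 52.7 kb and end at different places.

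The raw signal of every circRNA was higher on each HuD RIP array than on any control array. The median spot intensity of mmu_circRNA_38005 was 5906, 1058 and 3306.5 on HuD RIP replicates 1, 2 and 3, against 85, 30 and 29 in WT RIP and 30, 28 and 29 in IgG RIP. The lowest HuD RIP array was thus far above the brightest control array, which was WT RIP replicate 1. The other Gnb1 circRNA, mmu_circRNA_38004, read 2269.5, 304 and 920 in HuD RIP, 42.5, 25 and 26 in WT RIP, and 27, 25 and 25 in IgG RIP. The order of the arrays was the same within HuD RIP, with replicate 1 brightest and replicate 2 dimmest. Among the Arpp21 circRNAs, mmu_circRNA_45179 read 1980, 279 and 752 in HuD RIP, 59, 28 and 39 in WT RIP, and 37, 34 and 30 in IgG RIP. mmu_circRNA_010556 read 1567, 294 and 763 in HuD RIP, 55, 20 and 24 in WT RIP, and 31, 28 and 25 in IgG RIP. mmu_circRNA_018301 read 603, 59.5 and 189 in HuD RIP, 33, 21 and 27.5 in WT RIP, and 23, 22 and 21 in IgG RIP. For this last circRNA HuD RIP replicate 2 came closest to the controls, without overlap. The local background of these spots ran from 13 to 19.5. The control values were 1.31 to 4.72 times their own background, with a median of 1.75 times, and 22 of the 30 were well above it, as the plot of spot intensity by array shows.

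**Figure D2:**
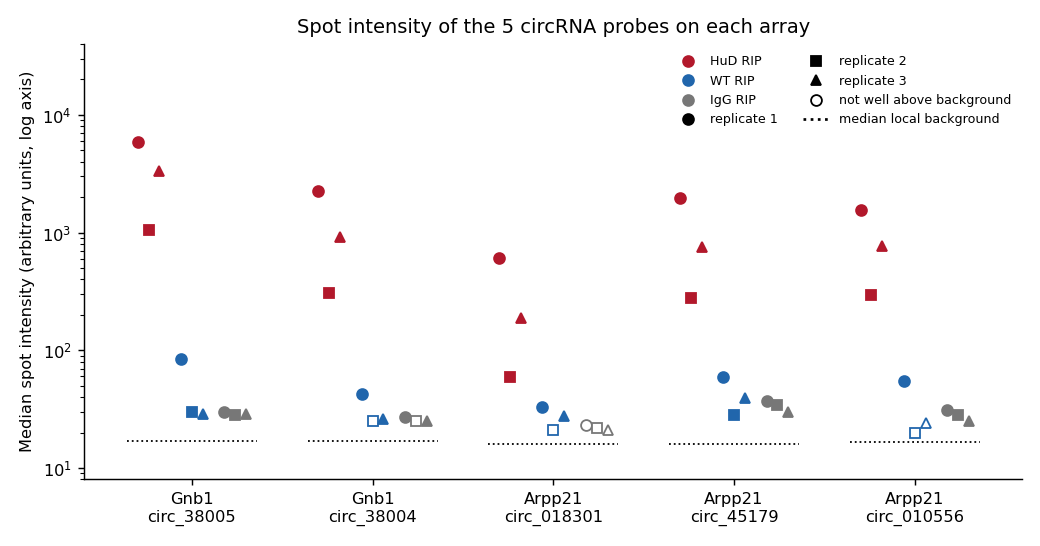
Points give the median spot intensity (arbitrary units, log axis) of each circRNA probe on each of the 9 arrays, coloured by group and shaped by replicate, with open points where the spot was not well above background and dotted lines at the median local background. The HuD RIP points lie at 59.5 to 5906 and the control points at 20 to 85. Within each circRNA the HuD RIP points do not overlap the control points, while WT RIP and IgG RIP overlap each other.

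The arrays themselves differed in brightness in the same direction. The 75th percentile of the log2 processed signal, before any scaling, was 5.46, 3.49 and 4.21 in HuD RIP, 3.51, 2.35 and 2.82 in WT RIP, and 2.42, 2.04 and 2.05 in IgG RIP. The HuD RIP mean exceeded that of WT RIP by 1.49 (exact two-sided permutation test, p = 0.2, n = 3 per group) and that of IgG RIP by 2.22 (exact p = 0.1, n = 3), and 0.1 is the lower limit of p for groups of this size. WT RIP replicate 1, the brightest control array for each of the 5 circRNAs, was also the brightest control array over all probes. The processed signal was therefore put on a common scale by subtracting this percentile from the log2 value of each array, and all differences from here on are in these scaled log2 units unless stated.

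After scaling, both Gnb1 circRNAs and the Arpp21 circRNA mmu_circRNA_010556 had the largest differences between HuD RIP and WT RIP, and the remaining Arpp21 pair had smaller ones. mmu_circRNA_38005 exceeded its WT RIP level in HuD RIP by 5.82 (SE 0.53) and its IgG RIP level by 6.12 (SE 0.53), which placed it at rank 1 of the 6871 tested probes in both comparisons. mmu_circRNA_38004, at 5.29 ± 0.557 (SD, n = 3) in HuD RIP, was higher by 5.34 (SE 0.45) and 5.22 (SE 0.45), at ranks 4 and 5. mmu_circRNA_38004 was well above background on 2 of 3 arrays of each control and mmu_circRNA_38005 on all 6.

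The Arpp21 circRNA mmu_circRNA_45179 had a scaled signal of 5.19 ± 0.578 (SD, n = 3) in HuD RIP. Its WT RIP arrays averaged 1.24 ± 0.656 (SD, n = 3) and its IgG RIP arrays 1.59 ± 0.104 (SD, n = 3), so that HuD RIP was higher by 3.95 (SE 0.44) and 3.60 (SE 0.44). It was well above background on all 9 arrays, so both differences were measured on both sides, and they ranked 54 and 85 of 6871. mmu_circRNA_018301 varied most among the HuD RIP arrays, at 3.01 ± 0.999 (SD, n = 3). It was higher than in WT RIP by 3.88 (SE 0.70), with 2 of 3 WT RIP arrays above background, at rank 63. None of the IgG RIP arrays was well above background for this probe (0 of 3), and the difference was at least 8.11-fold in these scaled processed signals, where the bound sets the HuD RIP mean against the lowest signal that counted as detected on each IgG RIP array (or the probe's own, where higher). That bound belongs to this background correction, since the difference for the same probe was 2.31 in the scaled uncorrected signal and 1.66 with normexp, both in log2. mmu_circRNA_010556, at 5.02 ± 0.472 (SD, n = 3) in HuD RIP, was higher by 5.47 (SE 0.75) than WT RIP, where 1 of 3 arrays measured it, and by 4.45 (SE 0.75) than IgG RIP, where all 3 did. Those differences ranked 3 and 21.

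The WT RIP mean of these last circRNAs rested in part on a floor in the deposited signal. On WT RIP replicate 2, mmu_circRNA_018301 and mmu_circRNA_010556 both had a processed signal of 1.01654, the lowest on that array and the same for 6041 of its probes. WT RIP replicate 3 had the same lowest value, for 4994 probes, with no member among them. Without WT RIP replicate 2 the difference from WT RIP was 4.53 for mmu_circRNA_010556 and 3.15 for mmu_circRNA_018301, and for the other 3 circRNAs it was 3.60 to 5.62. The size of a difference also moved with the background correction. In the uncorrected median signal, scaled the same way, the difference from WT RIP was 5.45 for mmu_circRNA_38005, 4.25 for mmu_circRNA_38004, 3.98 for mmu_circRNA_010556, 3.64 for mmu_circRNA_45179 and 2.24 for mmu_circRNA_018301, so mmu_circRNA_010556 then fell below mmu_circRNA_38004. mmu_circRNA_38005 was the highest and mmu_circRNA_018301 the lowest in both.

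Over the 5 circRNAs the median difference came to 5.34 from WT RIP and 4.45 from IgG RIP. The median over all 6871 tested probes was -0.36 and -0.29, and over the 737 listed probes 2.16 and 2.17. The 3 HuD RIP arrays did not overlap the 6 control arrays, and were the higher, for 5 of 5 circRNAs and for 12.5% of the 6868 tested probes with no missing value. The choice of the circRNAs favours this separation, and nothing is read from it. Within row 1 of the slide, which held HuD RIP replicate 1 beside the WT RIP arrays, the median difference was 5.70, and within row 2, with HuD RIP replicates 2 and 3 and IgG RIP replicates 1 and 2, it was 4.25. For the threshold of the lists, the lowest listed fold was 1.5 in both, in the log2 values normalized by the authors, where the 5 circRNAs ran from 4.68 to 47.9-fold against IgG RIP and from 4.65 to 38.5-fold against WT RIP, none of them near it.

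**Figure D3:**
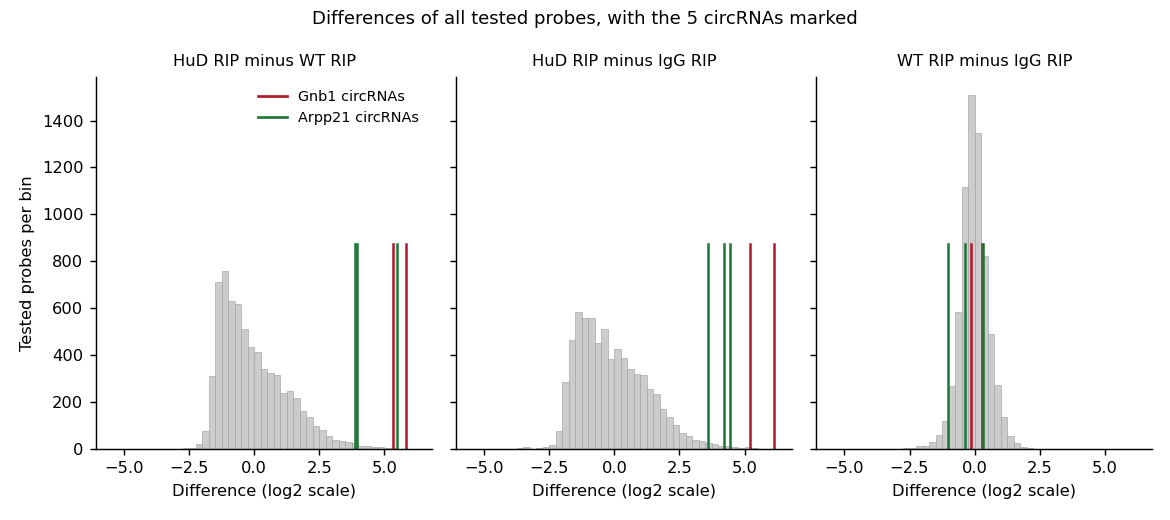
Grey bars count the 6871 tested probes by their difference in scaled log2 signal for the 3 comparisons, and vertical lines mark the Gnb1 (red) and Arpp21 (green) circRNAs. The lines stand in the right tail against both controls, between 3.60 and 6.12, and for WT RIP minus IgG RIP between -1.02, below which 3.25% of tested probes lay, and 0.34, below which 78.8% did.

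The comparison of the 2 controls was not used to choose the circRNAs and asks whether wild-type tissue with the anti-myc antibody gave more of them than HuD-OE tissue with the IgG control. None of the 5 passed the test (limma with Benjamini-Hochberg adjustment over 6871 probes, adjusted p = 0.999 for each), and 0 of 5 were at an unadjusted p under 0.05, where 0.0146% of all tested probes were called and 5.72% had an unadjusted p under 0.05. The limma estimate of WT RIP minus IgG RIP was 0.30 for mmu_circRNA_38005 (95% interval -0.85 to 1.45) and -0.12 for mmu_circRNA_38004 (-1.09 to 0.85). The limma estimate for the Arpp21 circRNAs was 0.34 for mmu_circRNA_018301 (-1.17 to 1.85), -0.36 for mmu_circRNA_45179 (-1.32 to 0.61) and -1.02 for mmu_circRNA_010556 (-2.64 to 0.61). Each interval holds 0 and also a difference of more than 1 in at least one direction. Without scaling, the estimates were 1.02, 0.60, 1.06, 0.37 and -0.29 in the same order, so the sign for mmu_circRNA_38004 and mmu_circRNA_45179 turned with the scaling. The estimate for mmu_circRNA_010556 was -0.08 without WT RIP replicate 2, the array on which it sat at the floor, and -2.05 without WT RIP replicate 1. Leaving out WT RIP replicate 1 also turned the estimates of mmu_circRNA_38005 (-0.34) and mmu_circRNA_018301 (-0.09). Over all arrays left out in turn, mmu_circRNA_38004 ran from -0.49 to 0.13 and mmu_circRNA_018301 from -0.09 to 1.07. The 1.07 was without WT RIP replicate 2, where mmu_circRNA_018301 also sat at the floor. None of the IgG RIP arrays was well above background for mmu_circRNA_018301, so its estimates set WT RIP against undetected signal. The WT RIP arrays shared row 1 of a slide and the IgG RIP arrays lay on row 2 (replicate 3 on another slide), so the controls meet only through the HuD RIP arrays when the row is a block, and the estimates were then 0.28, -0.66, -0.92, -0.97 and -1.38 in the same order, with none called.

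**Figure D4:**
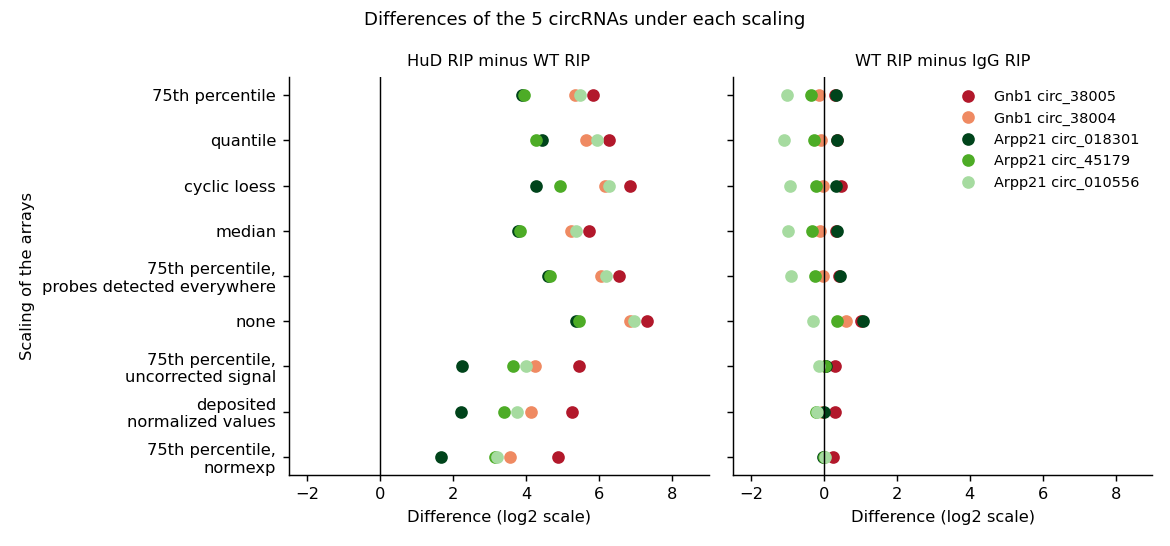
Points give the difference of each circRNA (log2 scale) between HuD RIP and WT RIP (left) and between WT RIP and IgG RIP (right) under 9 ways of scaling the arrays, with a vertical line at 0. On the left all points lie between 1.67 and 7.32, lowest with normexp background correction and highest with no scaling, while on the right the points lie on both sides of 0.

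The 5 circRNAs followed each other across the 9 arrays, with Pearson r between 0.92 (mmu_circRNA_38005 with mmu_circRNA_018301) and 0.99 (the Gnb1 pair). These values mostly describe the step between HuD RIP and the controls that chose the circRNAs. Over the 6 control arrays alone, where no such step enters, r ran from 0.36 (mmu_circRNA_38005 with mmu_circRNA_018301) to 0.97 (mmu_circRNA_45179 with mmu_circRNA_010556), and it was 0.84 for the Gnb1 pair. The remaining Arpp21 pairs were at 0.62 and 0.59, and pairs across the genes reached 0.84 (mmu_circRNA_38004 with mmu_circRNA_010556). The 0.97 includes the floor value of mmu_circRNA_010556 on WT RIP replicate 2. It also includes WT RIP replicate 3, where that circRNA was not well above background. Within HuD RIP the scaled signal of each circRNA was lowest on replicate 2, which was also the dimmest HuD RIP array. The part of array brightness in these patterns was not tested.

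The probes whose profile over the 9 arrays was most like that of the Gnb1 circRNAs included Pdcd4, St13, Actr2 and Calm3, with Pearson r of 0.997, 0.996, 0.994 and 0.992 to the mean of the centred Gnb1 profiles. The Pdcd4 and Actr2 probes were well above background on 0 of 6 control arrays and the St13 probe on 1 of 6, while Calm3, measured on all 6, differed from WT RIP by 4.75. Pdcd4 encodes an inhibitor of translation, Actr2 a subunit of the actin-nucleating Arp2/3 complex, and Calm3 is a calmodulin gene. Those most like the Arpp21 circRNAs belonged to Ywhag, Pafah1b2, Arf3, Cadm1 and Inpp4a, with r of 0.994, 0.991, 0.991, 0.987 and 0.987 and differences from WT RIP of 3.88, 3.83, 3.56, 3.77 and 3.77, where 1, 1, 3, 2 and 1 of 3 WT RIP arrays measured them. Ywhag encodes a 14-3-3 protein, Arf3 a small GTPase and Cadm1 a synaptic adhesion molecule. All of these were themselves in the authors' lists, so the likeness again holds the step between the groups.

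Other genes of G protein, dopamine, cAMP and calcium-calmodulin signalling had listed circRNAs as well. Of 115 symbols searched, 20 genes named 33 probes. With R3hdm1, the only named gene of 5 symbols of R3H domain relatives, the lists held 36 probes of 21 genes, and all 36 were tested. Since a probe had a name only where the authors listed it as higher in HuD RIP, the count of named probes says nothing of those that were not higher. Against WT RIP the median difference of the 36 was 2.58, from 0.82 to 4.78, and against IgG RIP it was 2.20, beside the 5.34 and 4.45 of the Gnb1 and Arpp21 circRNAs. Of the 36, 4 were not measured above background in WT RIP and 18 were not in IgG RIP, and with those at their lower bound the medians were 2.56 and 1.90 (4.45 for the 5 circRNAs against IgG RIP, as before). For 30 of the 36, every HuD RIP array was above every control array (12.5% over all probes), a separation that the listing itself favours.

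Among the α subunits that partner with Gnb1, Gnaq (mmu_circRNA_32264), which couples receptors to phospholipase C, differed from WT RIP by 3.74 (2 of 3 WT RIP arrays above background) and from IgG RIP by 3.47 (1 of 3). Gnai1, an inhibitor of adenylyl cyclase, had 3 circRNAs, one of which (mmu_circRNA_38144) differed from WT RIP by 3.54, with 1 of 3 WT RIP arrays above background, and the other two by 0.89 and 0.97, with all 3. For mmu_circRNA_38144 the values on WT RIP replicates 2 and 3 both sat at the floor of those arrays, so the 3.54 depends on that floor. Gnao1, the abundant neuronal α subunit, differed by 1.04. The G protein list, which also named Adrbk2, Rgs6 and Rgs7bp, had a median difference from WT RIP of 1.47 over 9 probes.

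On the side of cAMP and calmodulin, where the Arpp21 protein acts, Prkacb, a catalytic subunit of protein kinase A, had a circRNA (mmu_circRNA_36280) that differed from WT RIP by 4.78, with 1 of 3 WT RIP arrays above background. For that circRNA the difference from IgG RIP was 3.52, with 1 of 3 IgG RIP arrays above background. The other Prkacb circRNA (mmu_circRNA_36278) was well above background on none of the WT RIP arrays, and its HuD RIP signal was at least 6.77-fold theirs. Prkar1a, a regulatory subunit, was measured on all 9 arrays and differed by 2.93. The calmodulin gene Calm3 had sense-overlapping circRNAs at 4.75 and 4.17, each measured on all arrays, and an antisense one at 2.77, with 1 of 3 WT RIP arrays above background. Ppp1cb, a catalytic subunit of protein phosphatase 1, had circRNAs at 4.78 and 4.40, each with 1 of 3 WT RIP arrays above background, and another (mmu_circRNA_018676) that no WT RIP array measured and that was at least 4.81-fold higher. Ppp3ca and Ppp3cb, catalytic subunits of the calmodulin-activated phosphatase calcineurin, had circRNAs at 2.60 and 2.38, with 1 of 3 WT RIP arrays above background. A further Ppp3ca circRNA (mmu_circRNA_36214), not measured in WT RIP, had a HuD RIP mean at least 1.65-fold higher. Its arrays overlapped, with a lowest HuD RIP value of -0.97 and a highest control value of -0.93. The lower bounds for Prkacb, Ppp1cb and Ppp3ca hold in the scaled processed signals and belong to that background correction, as for mmu_circRNA_018301. For the Prkacb and Ppp1cb circRNAs at 4.78, the values on WT RIP replicates 2 and 3 both sat at the floor of those arrays. These differences from WT RIP therefore depend on that floor. From IgG RIP the Ppp1cb one differed by 5.02, with 0 of 3 IgG RIP arrays above background. At the low end of the list stood Rapgef2 at 0.82, with all 3 WT RIP arrays above background, and Camk4 at 0.99, with 1 of 3. The list of 24 such probes had a median of 2.71. R3hdm1, which encodes another R3H domain protein, had 3 circRNAs at 2.10, 2.14 and 2.55, with 2, 1 and 1 of 3 WT RIP arrays above background.

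In the comparison of the controls, 0 of the 36 probes was called by limma, and 1 had an unadjusted p under 0.05, beside 0.0146% and 5.72% of all tested probes. This was Camk2d (mmu_circRNA_36124), a subunit of the calmodulin-dependent kinase, with WT RIP below IgG RIP by a difference of -1.40 (limma adjusted p = 0.855). It was well above background on 1 of 3 WT RIP and 0 of 3 IgG RIP arrays, so the value compares signals mostly at background. Neither control gave a detected signal for Rgs6 (mmu_circRNA_25460), mmu_circRNA_018676, mmu_circRNA_36214 and mmu_circRNA_36278. For these 4 the test set background against background, so the lack of a call says nothing of them. IgG RIP gave no detected signal for 18 of the 36, these 4 and Camk2d mmu_circRNA_36124 among them. The median difference between the controls was -0.028 over the 36, -0.12 over the 5 Gnb1 and Arpp21 circRNAs and -0.045 over all tested probes.

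The labelled tissue could not be checked here, since the array detects circRNAs and names came only from the lists. A marker was named only where its circRNA was listed as higher in HuD RIP, so the counts do not describe the tissue. Of 16 marker genes of striatal projection neurons 2 were named (Bcl11b and Foxp1), of 11 neuronal markers 2 (Map2 and Syt1) and of 8 astrocyte markers 1 (Slc1a2), while 0 of 10 oligodendrocyte, 0 of 7 microglial and 0 of 6 endothelial markers were. A marker without a name may still have a circRNA probe on the array.

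The lists also give 5 microRNAs with predicted response elements for each circRNA, 22 different microRNAs for the 5 circRNAs. Of these, 3 were given for more than 1 circRNA, and all 3 for the overlapping Arpp21 pair mmu_circRNA_018301 and mmu_circRNA_010556. They are shown with the seed, bases 2 to 8, in capitals (RefSeq, GRCm38.p6), since they are what the predictions for that pair had in common.
mmu-miR-344f-5p: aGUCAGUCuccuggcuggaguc
mmu-miR-3099-5p: cCAGCUUCcuuccagcccuug
mmu-miR-7235-3p: uCUGACUUcuugcuucucuccuc
These were given for 0.543%, 1.36% and 0.950% of the 737 listed circRNAs. mmu_circRNA_45179, which overlaps mmu_circRNA_018301 along most of its length, shared none of the 5 with it. Within 1 circRNA, 2 of the predicted microRNAs shared a seed for mmu_circRNA_45179 (mmu-miR-6927-3p and mmu-miR-6945-3p) and for mmu_circRNA_38005, whose pair is shown.
mmu-miR-148b-3p: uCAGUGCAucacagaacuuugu
mmu-miR-152-3p: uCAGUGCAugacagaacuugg
Of the 22 microRNAs 19 had a sequence in the RefSeq table. Of the 25 predictions 22 could be searched, and the complement of the seed was in the 60-base sequence as deposited for 0 of them. The other strand was not searched. So short a sequence would seldom hold a given site, so nothing is read from this count. The rest of each circRNA was not searched.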

How the data were processed

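RNA from 9 striatal RIPs (HuD RIP, WT RIP and IgG RIP, 3 each, grouped by the sample titles) was measured on one-colour circRNA arrays. Per the file headers, the deposited intensity comes from Feature Extraction 11.0.1.1, whose processed signal has the background subtracted but is not normalized across arrays. The authors' deposited lists hold raw intensity and normalized log2 values, the normalization being not given in the sources used here (limma is named among their tools), together with a p-value, false discovery rate and fold change, which were not used. A further 8 group-mean columns were not used.

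Outlier spots were left out (269 spot values). From each array's log2 processed signal its 75th percentile (non-control probes) was subtracted, and the test took the 6871 probes that were detected, well above background, on 3 or more of the 9 arrays. The model, limma 3.58.1 in R 4.3.3 (lmFit, eBayes), was tested on simulated data, used all 9 arrays and had a mean for each group. Benjamini-Hochberg adjustment ran over all tested probes, with calls at an adjusted p under 0.05. WT RIP minus IgG RIP was tested; differences of HuD RIP are described with standard errors from the fit. Each member probe had 1 spot and 0 saturated values. Nothing in the labels ties the 3 samples of a group to separate animals, so p-values measure the spread between precipitations, and the number of arrays limits the precision.

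The members, gene lists and tests were chosen with earlier results of these data known. Named probes were every member, the listed pathway probes, and for each host gene the 5 tested probes with the highest Pearson r over 9 arrays to the mean of its centred member profiles. Of these named probes, some are counted and are not reported here. Alternatives were other scalings, normexp (offset 50), the uncorrected and the deposited normalized values, other filters, each array left out, blocks for replicate number and slide row, array brightness as a covariate, array weights, a trended robust fit, and the methods' t-test after Benjamini-Hochberg. Values within each slide row were added after seeing the data.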

Additional observations from a re-analysis of the deposited data

How the results depend on the processing

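The difference between HuD RIP and each control stayed above 0 for each of the 5 circRNAs under all 18 alternatives run for it. Some of the 18 left out an array of the control not compared, which cannot change the difference. In the 17 alternatives with all 3 groups, every HuD RIP array stayed above every control array for 5 of 5. In the main scaling this held for 12.5% of tested probes. The choice of the circRNAs favours this separation, and nothing is read from it. The median difference from WT RIP (5.34) was 6.15 with cyclic loess, 6.83 with no scaling, 6.05 with a percentile taken from probes detected everywhere, 3.98 in the uncorrected median signal, 3.74 in the deposited normalized values and 3.19 with normexp. The median difference from IgG RIP (4.45) was 5.33 with cyclic loess, 6.67 with no scaling, 5.26 with a percentile taken from probes detected everywhere, 3.57 in the deposited normalized values and 3.22 with normexp. Leaving out each array in turn gave 4.53 to 5.71 against WT RIP, lowest without WT RIP replicate 2, and 4.30 to 4.78 against IgG RIP. Within row 1 of the slide (HuD RIP replicate 1 and all WT RIP arrays), added after seeing the data, the median was 5.70, and within row 2, with HuD RIP replicates 2 and 3 and IgG RIP replicates 1 and 2, it was 4.25. The cause of these moves was not tested. Between the controls, 0 of the 5 circRNAs and 0 of the 36 pathway probes were called under all 26 alternatives, the replicate block included, under which 0 were called. In the main fit 0.0146% of all tested probes were called, so a count of 0 among so few probes says little. With the filter to probes detected on all arrays, only mmu_circRNA_38005, mmu_circRNA_45179 and 7 of the 36 pathway probes were in that test. For 4 of the 36 neither control gave a detected signal, so the lack of a call says nothing of those 4. The labels tie replicate numbers to no shared batch. Deviations of same-numbered arrays from their group means correlated at 0.65 and 0.56 between HuD RIP and WT RIP for replicates 1 and 2 but at -0.099 for replicate 3, and at -0.025 to 0.097 between WT RIP and IgG RIP, so the numbers were not taken as pairs. By scan date and array position, IgG RIP replicate 3 was the only array of these 9 on its slide. Signal over background was low in the controls: 1 to 3 of 3 WT RIP arrays and 0 to 3 of 3 IgG RIP arrays were well above background for a given circRNA.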
